A study of Homo sapiens with 12 samples.

Results

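The uninduced TAL1/LMO1 line was compared with the uninduced TAL1 line. Both were made from HPB-ALL cells, an established human line of T-cell acute lymphoblastic leukaemia (T-ALL), and both had been given DMSO, the vehicle of doxycycline. The comparison used the 2 TAL1/LMO1 DMSO libraries (C25 in the labels) and the 2 TAL1 DMSO libraries (T5), which are 4 of the 12 libraries of the series. They were taken by their labels and not by any measured value.

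The series holds 3 lines, for TAL1, for LMO1 (L4 in the labels) and for TAL1 together with LMO1, each with DMSO or with doxycycline and 2 libraries per group. By the labels, lentiviral infection and drug selection came first and doxycycline after that. The sources used here state neither its dose nor its time. They also do not state whether a line was 1 clone or a pool, or whether the 2 libraries of a group came from separate cultures. No library without a transgene was analysed here. In the uninduced comparison, the transgene content and the identity of the line therefore cannot be told apart.

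TAL1, a transcription factor with a basic helix-loop-helix domain, is normally shut off in developing T cells and is switched on in many T-ALLs. It binds E-box DNA as a dimer with an E-protein such as TCF3 or TCF12. LMO1 is a LIM-domain protein without DNA binding of its own that bridges TAL1 to GATA, LDB1 and RUNX factors. E-proteins drive the genes of the cortical thymocyte, among them RAG1, RAG2, PTCRA and CD1A, and TAL1 is known to blunt that activity. A doxycycline promoter can leak, which means that it gives some transcript without the drug.

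Levels are given in CPM, counts relative to the TMM-scaled library size, and a log2 difference is that of the TAL1/LMO1 line minus the TAL1 line. Calls were made in edgeR's quasi-likelihood test where the p adjusted by Benjamini-Hochberg over 16287 tested genes was under 0.05. The 4 libraries held 15367126 to 15816386 counts, and 3 counts in a library correspond to at most 0.198 CPM. A chi-square per degree of freedom of 1.73 between the TAL1 DMSO libraries and of 1.85 between the TAL1/LMO1 DMSO libraries showed that neither pair was 1 library deposited in duplicate.

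The sublines carried T-ALL transcripts, with some differences in level. CD3E, a chain of the T-cell receptor complex, stood at 685 and 672 CPM in the TAL1 line and at 404 and 405 CPM in the TAL1/LMO1 line. CD3D, CD7, CD1E, CD1A, DNTT and TRAC also lay above 40 CPM in all 4 libraries. RAG1, a subunit of the recombinase of antigen receptor genes, was low in both lines, at 14.4 and 12.8 CPM in the TAL1 line and 17.6 and 18.0 CPM in the TAL1/LMO1 line, against 1068 and 1074 CPM in the LMO1 line with DMSO. Markers of other cells were summed over fixed lists. The 18 erythroid and megakaryocyte markers summed to 929 to 943 CPM in the TAL1 line and 976 to 1005 CPM in the TAL1/LMO1 line. Only 3 of the 18 passed the filter on low counts, and these held 928 to 942 CPM and 975 to 1000 CPM of the sums. The globin genes HBA1, HBA2 and HBB were at 0. The 27 cytotoxic and natural killer genes summed to 47.3 to 48.2 CPM and 48.6 to 51.4 CPM, with GZMA, NCR1 and FCGR3A at 0. The 18 myeloid markers summed to 55.3 to 65.5 CPM and 37.7 to 40.2 CPM, with CD33, ELANE and CEBPA at 0. Most of this was AIF1, at 53.7 and 62.6 CPM in the TAL1 line and 34 and 36 CPM in the TAL1/LMO1 line. The 16 B-cell markers summed to 322 to 323 CPM and 126 to 132 CPM, of which IGLL1, a surrogate light chain gene, made up 312 CPM in each TAL1 library, and MS4A1 was at 0.

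Of the 16287 genes, 7401 were called between the uninduced lines, which is 45.4%. In the TAL1/LMO1 line 3654 were higher (22.4%) and 3747 lower (23%). Differences of at least 1 on the log2 scale were fewer and leaned to one side, with 1153 genes higher (7.08%) and 448 lower (2.75%), together 1601 (9.83%). Among genes that reached a group mean of 2 CPM, 986 were called with such a difference. The median over all tested genes was 0.01. The uninduced LMO1 line differed from both by like numbers of genes. It differed from the TAL1/LMO1 line in 6678 genes (41%) and from the TAL1 line in 5925 genes (36.4%).

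TAL1 and LMO1, the genes carried by the transgenes, were low without doxycycline. Counts per gene do not separate transcripts of a transgene from those of the cell's own gene. TAL1 stood at 4.06 and 3.88 CPM in the TAL1 line and at 3.08 and 7.34 CPM in the TAL1/LMO1 line. The ranges overlapped, with the highest and the lowest value in the same line (log2 difference 0.39, SE 0.44, edgeR adjusted p = 0.53). In the LMO1 line, which has no TAL1 transgene, TAL1 was at 0.262 and 0 CPM. LMO1 stood at 0.0655 and 0.324 CPM in the TAL1 line and at 0.449 and 6.89 CPM in the TAL1/LMO1 line. The TAL1/LMO1 libraries were both above the TAL1 libraries but 1 of them far more so, and the difference was not called (4.17, SE 1.72, edgeR adjusted p = 0.096). The uninduced LMO1 line had 3.93 and 1.76 CPM of LMO1.

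Replicate 2 of the uninduced TAL1/LMO1 line carried more of both TAL1 and LMO1 than replicate 1, and the comparison of these genes turned on which replicate was used. Where a replicate is left out, here and below, the lone library of its group is assumed to vary like the libraries of the other groups, which supply the spread. Without replicate 1, TAL1 was at 0.88 (edgeR adjusted p = 4e-04) and LMO1 at 5.08 (edgeR adjusted p = 3.3e-06). Without replicate 2, TAL1 was at -0.37 (edgeR adjusted p = 0.29) and LMO1 at 1.17 (edgeR adjusted p = 0.49). With doxycycline, TAL1 reached 932 and 868 CPM and LMO1 1501 and 1576 CPM in the TAL1/LMO1 line. TAL1 in the uninduced replicates 1 and 2 was 0.342% and 0.816% of that level, and LMO1 was 0.0292% and 0.448%. The doxycycline-treated TAL1 line reached only 35.5 and 42.9 CPM of TAL1.

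**Figure D1:**
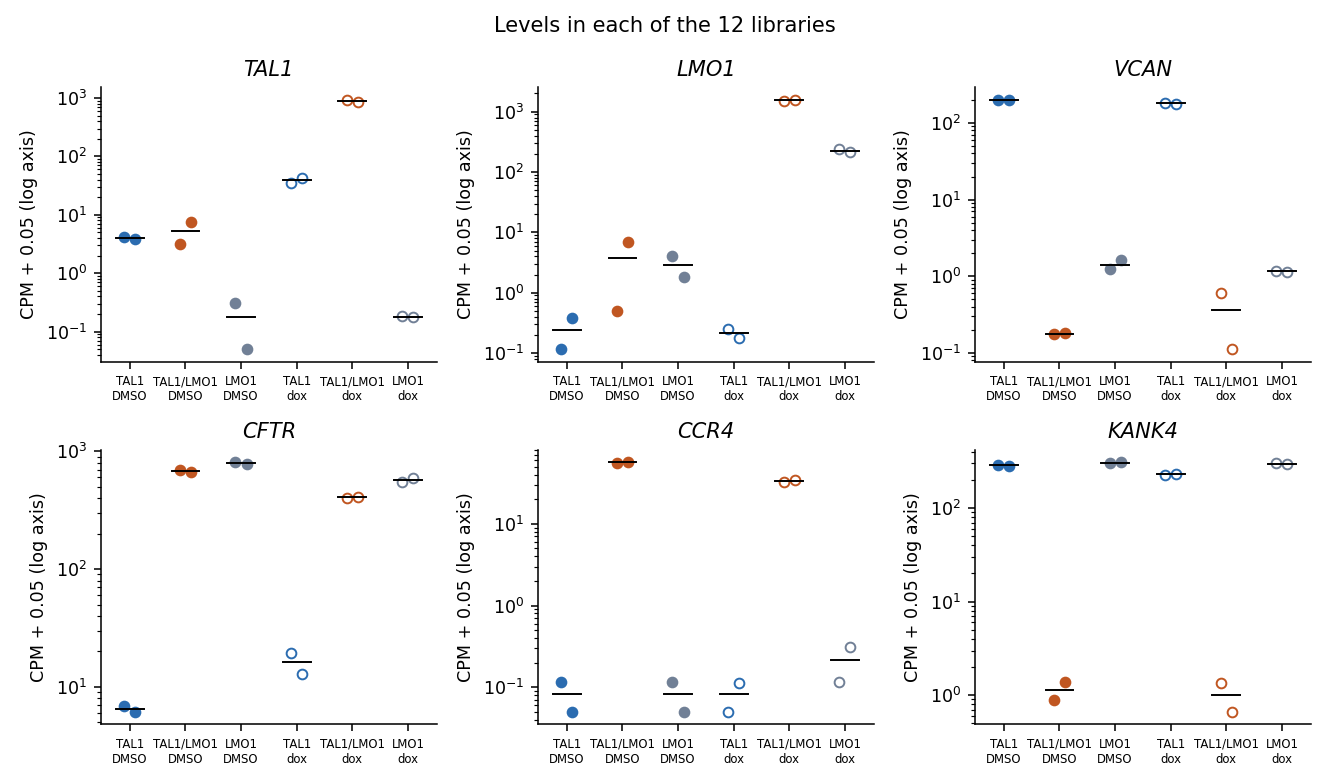
Level of TAL1, LMO1, VCAN, CFTR, CCR4 and KANK4 in each of the 12 libraries (vertical log axis, CPM with 0.05 added so that zeros show), by line and treatment, filled points for DMSO, open points for doxycycline, and a bar at the mean of the 2 libraries. VCAN is at 201 CPM in both uninduced TAL1 libraries and at 0.128 and 0.129 CPM in the TAL1/LMO1 libraries, while CFTR runs the other way, from 6.82 and 6.08 to 699 and 673 CPM.

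Among the largest differences were genes abundant in one line and all but absent in the other. VCAN, which encodes the matrix proteoglycan versican, stood at 201 CPM in both TAL1 libraries and at 0.128 and 0.129 CPM in the TAL1/LMO1 libraries (-10.52, SE 0.72, edgeR adjusted p = 8.7e-63). The uninduced LMO1 line, at 1.18 and 1.56 CPM, sat near the TAL1/LMO1 line. CFTR, a chloride channel gene, stood at 6.82 and 6.08 CPM in the TAL1 line and at 699 and 673 CPM in the TAL1/LMO1 line (6.73, SE 0.10, edgeR adjusted p = 1.2e-22). Here too the LMO1 line, at 807 and 774 CPM, was close to the TAL1/LMO1 line.

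Among the 12 largest rises, SCGB3A1, a secreted secretoglobin, had 0 counts in the TAL1 line and 28.7 and 29.4 CPM in the TAL1/LMO1 line, at least 297-fold higher against a floor of 3 counts over the group. CCR4, a chemokine receptor of skin-homing and helper T cells, had 0.0655 and 0 CPM against 55.9 and 56.4 CPM. Its TAL1 libraries held so few counts that the ratio of 1724 has a 95% exact interval of 309 to 68113. PTPRF, a receptor tyrosine phosphatase, stood at 0.197 and 0.129 CPM against 88.9 and 96.5 CPM (9.08, SE 0.65). The groups did not overlap for any of these genes, as the rule for naming them required. PDGFB, a growth factor chain, IL6R, the interleukin-6 receptor, SDK1, an adhesion protein, and DNAH9, a dynein heavy chain, were at 0 counts in the TAL1 line, with lower bounds of 51.6-fold, 37.2-fold, 28.6-fold and 73.0-fold. The same held for DCDC2C, SFRP5, a secreted WNT inhibitor, and KLRD1, a natural killer receptor, at 50-fold, 34.2-fold and 27.6-fold. PLCB2, a phospholipase C, and OBSL1, a cytoskeletal adaptor, completed the list with ratios of 433 (95% exact interval 77.3 to 17145) and 363 (124 to 1765).

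Among the 12 largest falls, BEND6 stood at 21.7 and 19.3 CPM in the TAL1 line and at 0 counts in the TAL1/LMO1 line, at least 213-fold lower. KANK4, a protein of the cell cortex, stood at 291 and 283 CPM against 0.834 and 1.35 CPM (-8.03, SE 0.25). LRP6, a WNT co-receptor, stood at 56.0 and 55.8 CPM against 0.257 and 0 CPM (-8.68, SE 0.72). In contrast to VCAN, KANK4 and LRP6 were as high in the LMO1 line, at 305 and 308 CPM and at 83.9 and 75 CPM, as in the TAL1 line or higher. CASP4, an inflammatory caspase, ALKBH3, an alkylation repair enzyme, BCAM, a laminin receptor, ITGA1, an integrin chain, and APBA2, APOL1 and EIF4E3 were likewise under 0.3 CPM in both TAL1/LMO1 libraries. The TAL1 line had from 3.69 to 24.6 CPM of these 7 genes. RHOU, an atypical small GTPase, was the most abundant member, at 1173 and 1152 CPM against 9.75 and 9.72 CPM (-6.90, SE 0.08).

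Promoters are shown for CCR4 and VCAN because they were the extremes among genes with over 50 CPM in the higher line. The E-box CANNTG, the element that TAL1 and E-protein dimers bind, was searched in the 250 bases before the RefSeq start (GRCh38.p14, another build than that of the counts, plus strand for both genes, at chr3:32951394-32951643 and chr5:83471494-83471743). The motif reads the same on both strands, and its matches are in capitals.
CCR4: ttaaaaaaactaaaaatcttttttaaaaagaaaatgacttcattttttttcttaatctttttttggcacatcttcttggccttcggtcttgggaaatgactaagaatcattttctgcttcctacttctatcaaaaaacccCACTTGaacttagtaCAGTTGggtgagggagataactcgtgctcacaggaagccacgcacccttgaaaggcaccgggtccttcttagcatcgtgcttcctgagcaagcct
VCAN: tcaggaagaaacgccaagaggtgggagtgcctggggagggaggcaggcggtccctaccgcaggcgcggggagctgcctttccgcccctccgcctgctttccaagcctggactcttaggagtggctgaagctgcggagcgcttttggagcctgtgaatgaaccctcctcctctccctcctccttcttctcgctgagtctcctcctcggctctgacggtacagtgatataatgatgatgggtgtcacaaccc
The CCR4 window held 2 matches and the VCAN window 0, and 62.2% of all 27305 RefSeq promoter windows of this length held at least 1. Such a match is only a description of the letters. RefSeq windows were found by symbol for 9749 of 16268 tested genes, too few to compare the called genes with the rest.

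Among genes with at least 100 CPM in one of the lines, VCAN, KANK4, RHOU and CFTR led, and others followed with smaller differences. RXRA, a retinoid receptor, stood at 2.62 and 3.56 CPM in the TAL1 line and at 152 and 159 CPM in the TAL1/LMO1 line (5.65, SE 0.15). SEC31B, a coat protein of vesicles, stood at 51.8 and 59.3 CPM against 495 and 539.5 CPM (3.22, SE 0.06). The long noncoding RNAs LINC00689 and CASC15 were higher by 4.29 and 3.32, and MVB12B, a subunit of the ESCRT-I complex, by 3.18. On the other side, MYO7B, an unconventional myosin, PLEK, a protein kinase C substrate of blood cells, and DGKH, a diacylglycerol kinase, were lower, with log2 differences of -6.38, -5.73 and -5.84. In each of these genes the 2 libraries of a line lay within a narrow range compared with the distance between the lines.

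The same lines could be compared in libraries that the uninduced comparison does not use, those with doxycycline. There, 11175 genes were called (68.6%), of which 2409 were higher (14.8%) and 1578 lower (9.69%) by at least 1. Of the 1153 genes higher by at least 1 without doxycycline, 866 were also higher by at least 1 with it, which is 75.1% of the former and 35.9% of the 2409. Of the 448 lower genes, 327 were again lower by at least 1, which is 73% of the former and 20.7% of the 1578. Opposite calls by at least 1 were found for 28 and 14 genes. VCAN differed by -9.15 with doxycycline, KANK4 by -7.89, CCR4 by 9.68 and CFTR by 4.66, so these line differences had the same direction under both treatments. Beside this, 12 genes present in the LMO1 line and all but silent in the uninduced TAL1 line had a median of 1.63% and 0.468% of their LMO1-line level in the 2 doxycycline TAL1 libraries. In the DMSO TAL1 libraries it was 0.0553% and 0%, a low level that the choice of these genes fixed. What part this had in the doxycycline comparison was not tested.

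**Figure D2:**
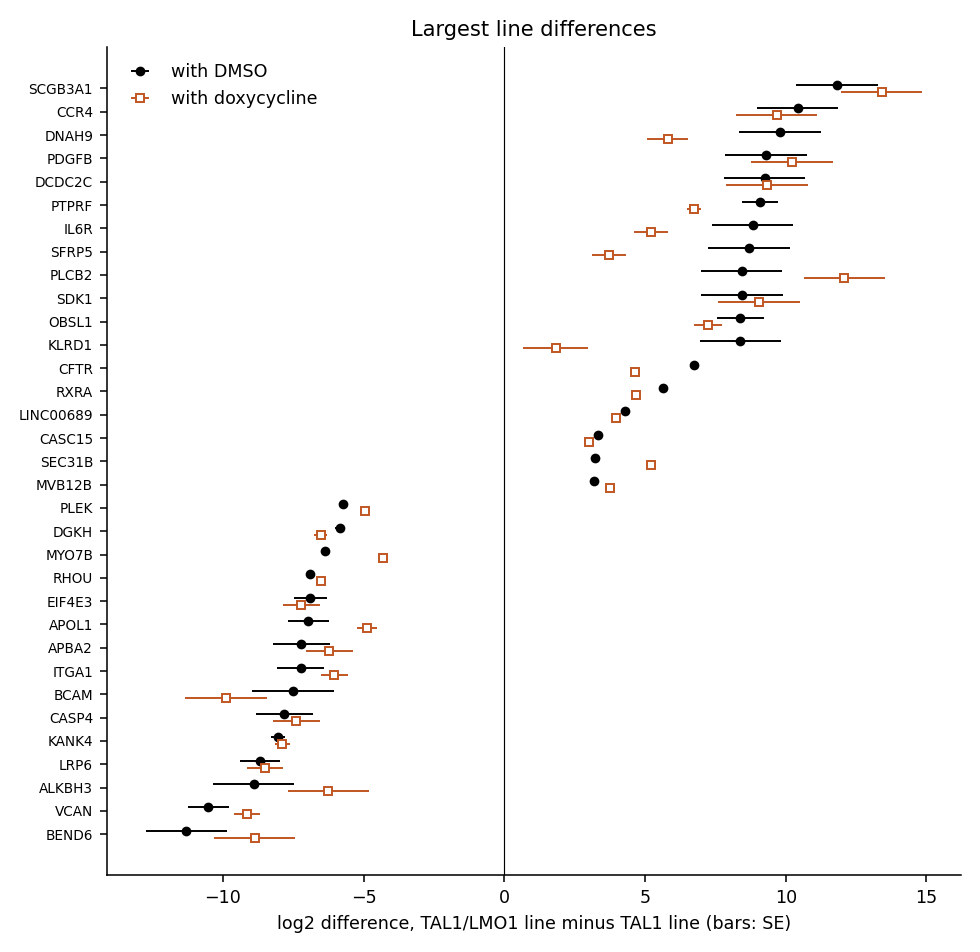
Log2 difference between the lines (horizontal axis, TAL1/LMO1 minus TAL1) with DMSO (filled) and with doxycycline (open), with SE bars, for the largest and the largest abundant rises and falls chosen on the DMSO libraries. All 33 genes keep their side of zero, and KLRD1, at 8.39 with DMSO and 1.82 with doxycycline, shifts most.

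The 33 genes of the largest and the largest abundant differences were then read in the doxycycline response of the TAL1/LMO1 line. In it 15 were not called, 11 were called with a change under 1, 6 rose by at least 1 and 1 fell by at least 1. The share of all genes called in that response is not given here, so whether these counts are high or low cannot be read from them. That response shares the uninduced TAL1/LMO1 libraries with the line comparison, so its values are given only side by side. VCAN differed by -10.52 between the lines and by 1.21 with doxycycline (edgeR adjusted p = 0.17), and KANK4 by -8.03 and -0.19 (edgeR adjusted p = 0.67). LRP6 differed by -8.68 and 0.25 (edgeR adjusted p = 0.88), and CASC15 by 3.32 and -0.07 (edgeR adjusted p = 0.23). CFTR, higher by 6.73 between the lines, fell with doxycycline by 0.76 (edgeR adjusted p = 1.1e-09). CCR4, higher by 10.43, also fell by 0.76 (edgeR adjusted p = 7.9e-14). SEC31B, by contrast, was higher by 3.22 and rose further with doxycycline by 2.34 (edgeR adjusted p = 2.4e-54), to 2598 and 2637 CPM. SCGB3A1, higher by 11.82, rose by 1.60 (edgeR adjusted p = 1.1e-30), and KLRD1, higher by 8.39, fell by 3.41 (edgeR adjusted p = 7.6e-10).

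To describe how far uninduced cells hold the transcripts of the doxycycline TAL1/LMO1 line, 32 genes were taken that had at least 20 CPM in the doxycycline TAL1/LMO1 line and at most 1 CPM in the uninduced LMO1 line. Neither of those groups is part of the line comparison, but the rule asks for no rise with doxycycline. Of the 32 genes, 25 rose by at least 1 in the TAL1/LMO1 line with doxycycline and 7 did not, so genes that mark this line with or without the drug are included and by themselves give a high share. Their median level, as a percent of the doxycycline TAL1/LMO1 mean, was 4.52% and 5.01% in the TAL1 libraries and 32.7% and 31.3% in the TAL1/LMO1 libraries. The share depended on the choice of genes. Over the 6 genes of a stricter panel, with at least 50 CPM in the doxycycline TAL1/LMO1 line and at most 0.5 CPM in the uninduced LMO1 line, it was 7.3% in the TAL1/LMO1 line and 0.281% in the TAL1 line. The 32 genes' median share of the doxycycline profile was also subtracted from each TAL1/LMO1 library. SCGB3A1 then lost its call (7.44, edgeR adjusted p = 0.17). SEC31B (-12.68), TRAC (-12.40), IL16 (-9.08), ITIH2 (-6.81), SEMA4A (-4.59), MYB (-0.99), CCR7 (-0.28) and MYC (0.19) changed direction. Genes whose own share lay below the subtracted one were left without counts, such as SEC31B at 19.8%, IL16 at 21.3% and ITIH2 at 8.66%. Their change of direction was fixed by the subtraction and says nothing about the uninduced cells. The libraries were also scaled anew after it, which raised genes that lost few counts, such as MYC. The median shares of the 2 TAL1/LMO1 libraries were close. Replicate 2 held more of TAL1 and LMO1 by 0.474% and 0.418% of the doxycycline level, which is too little to show in medians of this size.

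The members did not share a common fraction of their doxycycline level. CCR4 in the uninduced TAL1/LMO1 libraries was at 169% and 171% of it and THRA, a thyroid hormone receptor, at 143% and 148%, so both were above the doxycycline level. SCGB3A1 was at 32.7% and 33.4%, and SLAMF1, a lymphocyte adhesion receptor, at 50.4% and 51.5%. MME, which encodes CD10, a marker of immature lymphocytes, was at 47.8% in both libraries, but also at 20.7% and 19.8% in the TAL1 line. Others were far lower. ITIH2, a hyaluronan-binding plasma protein, was at 8.37% and 8.94%, and SEMA4A, a semaphorin, at 0.592% and 1.19%. STAT5A, a transducer of cytokine signals, was at 1.84% and 2.84%, below the TAL1 line at 5.05% and 5.99% (-1.24, SE 0.30, edgeR adjusted p = 0.00024). VAV3, a guanine nucleotide exchange factor, was also lower in the TAL1/LMO1 line (-0.46, SE 0.16, edgeR adjusted p = 0.011), a call lost without TAL1 replicate 1 (-0.45, edgeR adjusted p = 0.053) or TAL1/LMO1 replicate 1 (-0.36, edgeR adjusted p = 0.13).

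**Figure D3:**
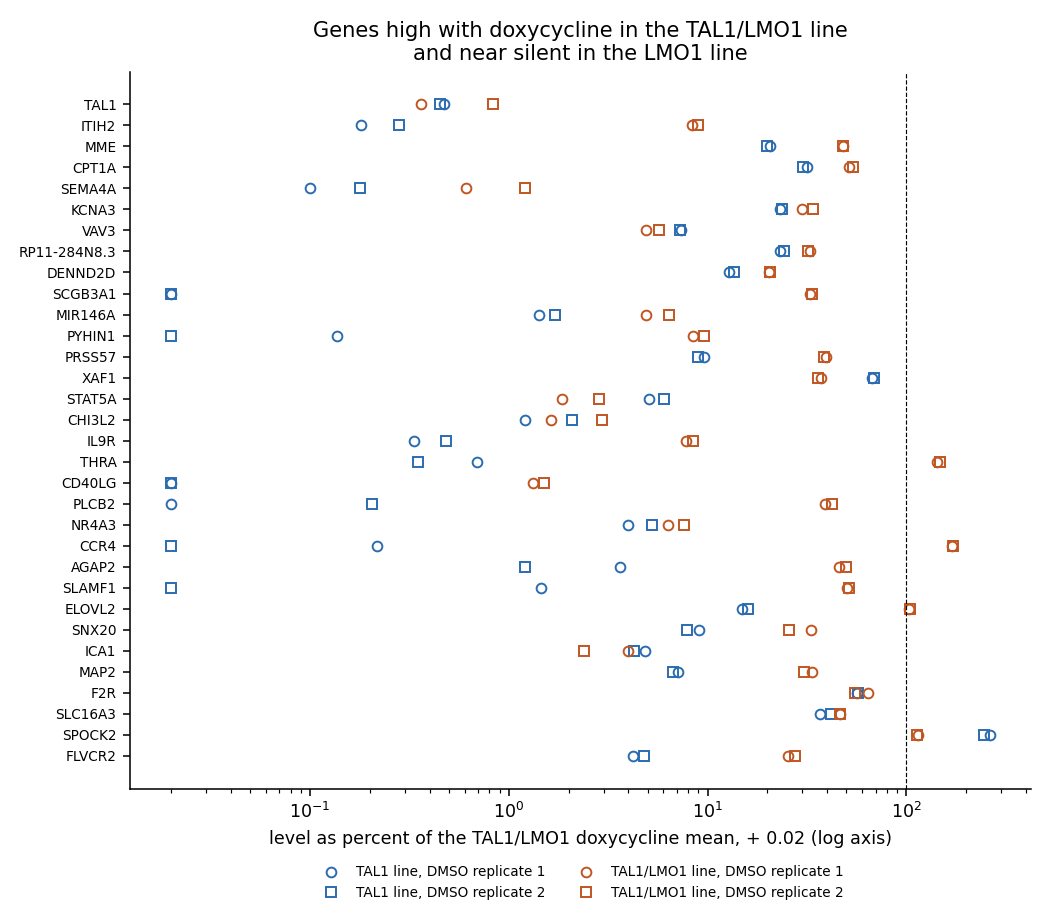
Level of 32 genes in each uninduced library as a percent of the doxycycline TAL1/LMO1 mean (horizontal log axis, with 0.02 added so that zeros show), 1 row per gene in order of that mean, blue for the TAL1 line and orange for the TAL1/LMO1 line, with a dashed line at 100%. In the TAL1/LMO1 libraries 8 and 6 genes lie under 5%, and 7 in each lie over 50%.

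The genes that rose most with doxycycline in the TAL1/LMO1 line, by at least 4 on the log2 scale and to at least 30 CPM, numbered 14 with TAL1 and LMO1. They were chosen after their values were seen, and a low level without doxycycline is fixed by the choice. ALDH1A2, a retinoic acid synthesis enzyme known as a target of TAL1 and LMO proteins, stood at 1.38 and 1.88 CPM in the TAL1 line and at 0.834 and 3.41 CPM in the TAL1/LMO1 line, against 493 and 524 CPM with doxycycline. The uninduced groups overlapped (0.38, SE 0.46, edgeR adjusted p = 0.54). In 13 of the 14 genes replicate 2 of the uninduced TAL1/LMO1 line was above replicate 1, by a median of 0.7% of the doxycycline level and at most by 1.47%. The exception was EPAS1, at 2.44 and 1.87 CPM. How often replicate 2 lay above replicate 1 over all genes is not given here. Some of the 14 genes differed little, such as CD40LG at 0.513 and 0.579 CPM. Without TAL1/LMO1 replicate 1, ALDH1A2 was called at 1.06 (edgeR adjusted p = 0.0011), and without replicate 2 it was at -0.96 (edgeR adjusted p = 0.061).

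The falling side was examined with 54 genes that had at least 20 CPM in the uninduced LMO1 line and at most 1 part in 8 of that in the doxycycline TAL1/LMO1 line. This rule too asks for no response to the drug, and 15 of the 54 did not fall by at least 1 in the TAL1/LMO1 line with doxycycline. Genes low in that line under both treatments therefore pull the median between the uninduced lines, -0.56, down by the choice itself. KANK4 was already at its doxycycline level of 1.30 and 0.614 CPM. SATB1, a chromatin organiser of thymocytes, was too, at 14.2 and 14.7 CPM without and 17.0 and 15.4 CPM with doxycycline, against 146 and 145 CPM in the TAL1 line (-3.33, SE 0.07). DOCK1, an exchange factor for RAC, went the other way, at 977 and 937 CPM in the TAL1 line and 1267 and 1235 CPM in the TAL1/LMO1 line (0.39, SE 0.04), against 9.44 and 9.34 CPM with doxycycline. ADAMTS17, a secreted protease, was higher by 0.80 between the lines and fell by 2.65 with doxycycline. MYC, the growth-promoting transcription factor, was at 695 and 711 CPM against 540.4 and 577 CPM (-0.33, SE 0.04), and at 48.9 and 50.7 CPM with doxycycline. ADA, adenosine deaminase, and SLC29A1, a nucleoside transporter, were lower by a similar margin, -0.62 and -0.67.

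Fixed gene lists were then described by their called members, beside the 45.4% of all genes that were called, 22.4% higher and 23% lower. By at least 1 on the log2 scale all genes leaned to higher, at 7.08% against 2.75%. Lists overlap in members and are not independent of each other. For the partners of TAL1, 10 of 18 tested genes were higher and 3 lower, with a median of 0.24. RUNX3 stood at 429 and 411 CPM in the TAL1 line and at 749.9 and 792 CPM in the TAL1/LMO1 line (0.88, SE 0.05). GATA3, at 252 and 235 against 279 and 281 CPM, was higher by 0.20 (edgeR adjusted p = 0.00031), while RUNX1, at 229.9 and 215 against 199 and 217 CPM, was not called (-0.10, edgeR adjusted p = 0.097). RUNX1 rose by 2.46 with doxycycline. Of genes activated by TAL1 in T-ALL, 8 of 18 were higher and 4 lower, with a median of 0.13. By at least 1 on the log2 scale, 2 were higher and 3 lower. ARID5B, a chromatin regulator, was at 17.8 and 15.4 against 79.9 and 72.9 CPM (2.20, SE 0.08), and IL16, a cytokine, was higher by 1.84. GIMAP2, a GTPase of lymphocytes, was lower (-1.42, SE 0.11). MYB, at 398 and 379 against 453 and 414 CPM, was higher by 0.16 (edgeR adjusted p = 0.0032), a call lost without TAL1/LMO1 replicate 1 (0.09, edgeR adjusted p = 0.22) or TAL1 replicate 2 (0.12, edgeR adjusted p = 0.099).

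E-protein targets were more often higher than lower, at 17 and 6 of 24 and a median of 0.50, whereas their median in the doxycycline response of the TAL1/LMO1 line was -0.92. Cortical thymocyte genes gave 12 higher and 6 lower of 20, a median of 0.32, and -0.71 in that response. PTCRA, the pre-T-cell receptor chain, was at 10.9 and 10.7 CPM in the TAL1 line and at 21.1 and 22.8 CPM in the TAL1/LMO1 line (1.02, SE 0.11), and fell by 3.74 with doxycycline. DNTT, the template-free polymerase of receptor gene joining, was at 170.2 and 172 against 375 and 366 CPM (2.17-fold higher), and fell by 3.63. RAG2 was at 2.62 and 3.24 against 27.3 and 25.8 CPM (3.18, SE 0.16), and fell by 3.32. All 3 were thus higher between the uninduced lines and lower with doxycycline. CD1A, a lipid-presenting molecule of cortical thymocytes, followed the same order, higher by 2.65 and falling by 0.95. In the uninduced LMO1 line RAG2, at 239 and 242 CPM, and PTCRA, at 64.8 and 73 CPM, were above both lines. DNTT, at 66.7 and 59.4 CPM there, was below both, and CD1A, at 57.8 and 54.1 CPM, lay between them. ID3, an inhibitor of E-proteins, was higher by 1.02, while its relative ID1 was lower (-1.68). Other members were lower in both comparisons. IL7R, the interleukin-7 receptor, was at 361 and 365 against 24.7 and 20.6 CPM (-4, SE 0.07) and fell by 1.74 with doxycycline. ARPP21, a phosphoprotein of thymocytes and neurons, had log2 differences of -3.69 between the lines and -3.29 with doxycycline.

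NOTCH targets gave 5 higher and 10 lower of 19 and a median of -0.25. NOTCH1 was at 1596 and 1503 against 1058 and 1144 CPM (-0.49, SE 0.04), and DTX1, a feedback regulator of NOTCH, was lower (-1.27). HES1, the classical target, was instead higher by 0.24 (edgeR adjusted p = 0.00035). T-cell receptor genes gave 17 higher and 8 lower of 28 and a median of 0.31. TRAC, the constant region of the receptor alpha chain, was at 43.1 and 48.5 against 228 and 229 CPM (2.32, SE 0.06), and CD5, a negative regulator of receptor signalling, was higher by 1.28. CD3E (-0.75), CD3D (-0.45) and the T-cell marker CD7 (-0.60) were lower. T-lineage transcription factors gave 22 higher and 6 lower of 34 and a median of 0.48. Beside SATB1, the members with the smallest p were ZBTB7B, the CD4-lineage factor, at 1.51 and 1.49 against 25.9 and 25 CPM (4.08, SE 0.22), and SOX4, higher by 1.17. TCF7, a WNT pathway factor of T cells, was at 3285 and 3112 against 2496 and 2564 CPM (-0.34, SE 0.04).

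Fixed lists of receptors, matrix, channel and adhesion genes each had more members called higher than lower, but their summed levels did not all follow. Chemokine and homing receptors gave 11 higher and 1 lower of 16, with a median of 0.97. Beside CCR4, GPR183, an oxysterol receptor, was at 0.459 and 0.324 against 14.2 and 16 CPM (5.24, SE 0.42), and CCR7, the lymph node homing receptor, was higher by 1.70. Extracellular matrix genes gave 12 higher and 3 lower of 22, with a median of 0.76, while their sum was 568 to 583 CPM in the TAL1 line and 429 to 463 CPM in the TAL1/LMO1 line. VCAN and FBN1, the fibrillin gene (-1.09), were among those that fell, and HAPLN3, a hyaluronan link protein, was higher by 2.04. Ion channels and transporters gave 17 higher and 5 lower of 31, with KCNQ1, a potassium channel, at 2.88 and 3.17 against 25.3 and 28.3 CPM (3.14, SE 0.16). Adhesion genes gave 14 and 7 of 29. SELPLG, the selectin ligand PSGL-1, was higher by 2.27, and CD44, the hyaluronan receptor, lower (-1.89). Cytokine receptors gave 13 and 8 of 28, but 4 and 6 by at least 1, and their sum was 1390 to 1410 CPM against 1130 to 1140 CPM. IL2RB, a chain of the interleukin-2 receptor, was higher by 4.10, and IL4R lower (-2.20). The GIMAP GTPases of lymphocytes had 3 of 4 lower and a median of -1.43.

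**Figure D4:**
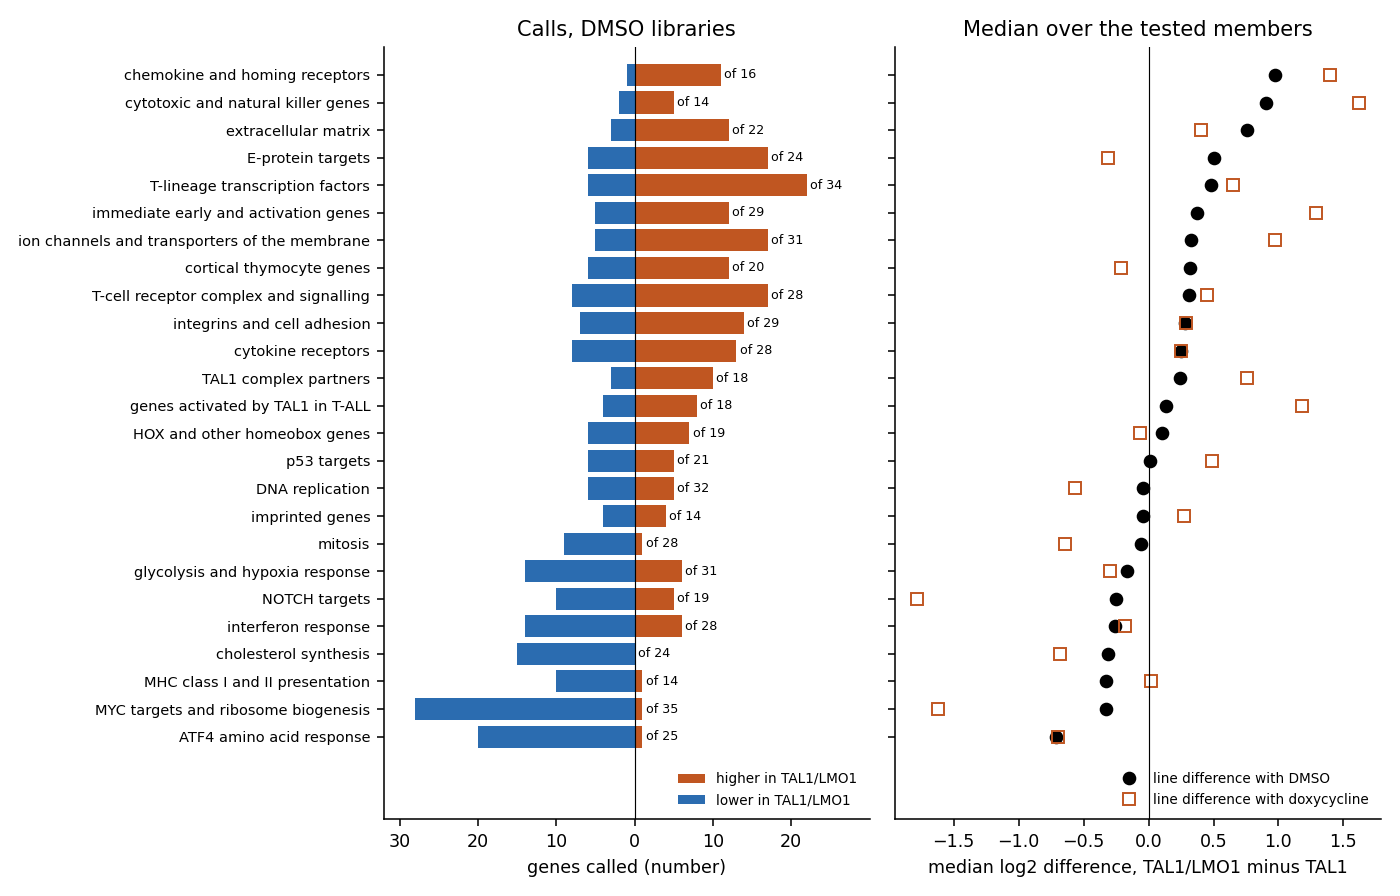
Left, number of called genes per list between the uninduced lines, to the right where higher in the TAL1/LMO1 line and to the left where lower, with the number tested, for lists of at least 14 tested genes. Right, median log2 difference between the lines (TAL1/LMO1 minus TAL1) with DMSO (filled) and with doxycycline (open). Medians with DMSO run from -0.71 for the ATF4 list to 0.97 for chemokine and homing receptors.

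Lists of growth and metabolism leaned to the TAL1 line. Of 35 genes of the list for MYC targets and ribosome biogenesis, 28 stood lower in the TAL1/LMO1 line and 1 higher, with a median of -0.33. The doxycycline response of the TAL1/LMO1 line had a median of -1.33 over this list. NPM1, a nucleolar chaperone, was at 1776 and 1861 against 1230.4 and 1235 CPM (-0.56, SE 0.04), and CAD, an enzyme of pyrimidine synthesis, was at 389 in both against 223 and 222 CPM (-0.81, SE 0.05). The ATF4 list of the amino acid response had 20 lower and 1 higher of 25 and the lowest median of the lists with at least 14 tested genes, -0.71, with -0.17 in the doxycycline response. ATF4 itself was at 1133 CPM in both TAL1 libraries and at 507 and 501 CPM in the TAL1/LMO1 line (-1.17, SE 0.04). PHGDH, the first enzyme of serine synthesis, and MTHFD2, a mitochondrial folate enzyme, were lower (-0.64 and -1.02). In the uninduced LMO1 line ATF4 was at 644 and 670.2 CPM, PHGDH at 119.6 and 122 CPM and MTHFD2 at 135 and 137 CPM. These lay nearer to the TAL1/LMO1 line than to the TAL1 line. NPM1, at 1553 and 1638 CPM, lay nearer to the TAL1 line, and CAD, at 279 and 281 CPM, lay between the 2 lines.

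Cholesterol synthesis had 15 lower and 0 higher of 24 and a median of -0.31, with HMGCS1 at 225 and 234 against 122 and 119 CPM (-0.93, SE 0.05). Glycolysis and hypoxia genes had 14 lower and 6 higher of 31, with VEGFA, an angiogenic factor, lower (-1.78). Antigen presentation had 10 lower and 1 higher of 14 and a median of -0.33, and without TAL1 replicate 2 the called members numbered 7 in place of 11. PSMB9, an immunoproteasome subunit, was lower (-1.29). Interferon response genes had 14 lower and 6 higher of 28 and a median of -0.26, with IRF1 at 193 and 195 against 91.6 and 103 CPM (-1, SE 0.05). In the uninduced LMO1 line IRF1, at 104 and 110.4 CPM, and PSMB9, at 28.7 and 27.8 CPM, were near the TAL1/LMO1 line. HMGCS1, at 257 and 256 CPM there, was above both lines, and VEGFA, at 186 and 213 CPM, lay between them. Lists of cell division moved less than these. Mitosis had 9 lower and 1 higher of 28 with a median of -0.06, and DNA replication 6 lower and 5 higher of 32 with a median of -0.04. Immediate early genes had 12 higher and 5 lower of 29, with NR4A2, an orphan nuclear receptor, higher by 1.33. Targets of p53 split 5 to 6 of 21, with CDKN1A, the cell-cycle inhibitor p21, at 2.49 and 1.62 against 18.6 and 18.0 CPM (3.15, SE 0.19).

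Genes of the Y chromosome differed as a block, a grouping made after their values were seen. All 17 called genes of the 19 tested were higher in the TAL1/LMO1 line. The 19 genes together held 94 counts over the TAL1 DMSO libraries and 23966 over the TAL1/LMO1 DMSO libraries. Between the TAL1/LMO1 and LMO1 lines their median difference was -0.02. With doxycycline 18 of the 19 were higher in the TAL1/LMO1 line. Of 15 tested genes in the pseudoautosomal regions, which X and Y share, 11 were higher and 1 lower, with a median of 0.92. SLC25A6, a mitochondrial ADP/ATP carrier, was at 95.2 and 92.7 CPM in the TAL1 line, 216 and 211 CPM in the TAL1/LMO1 line and 200.5 and 194 CPM in the LMO1 line (1.18, SE 0.05). PPP2R3B, a phosphatase subunit, was higher by 1.37, and CD99, a surface glycoprotein, was the exception at -0.64. The median differences of chromosomes 1 to 22 and of X without these regions, over genes with a mean log2 CPM above 2, lay between -0.095 and 0.094.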

How the data were processed

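RNA was sequenced from 12 HPB-ALL libraries, in 6 groups of 2. Per the submitters' processing notes, STAR 2.5.2a, featureCounts and DESeq2 1.12.4 were used with the build hg19. The authors deposited whole-number counts per gene, with no normalization. The sources used here give neither their annotation and strand setting nor whether reads or pairs were counted, so antisense or overlapping genes may share counts.

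All 12 libraries were fitted in edgeR 4.0.16 (R 4.3.3) after filterByExpr and TMM, with 1 mean per group and no replicate block. The quasi-likelihood F test was robust and two-sided, with 6 residual degrees of freedom and a median of 66 prior ones, so that most p-values rest on the spread of other genes. The common biological coefficient of variation was 3.35%. Since nothing says that replicates were separate cultures, p-values cover the spread between these libraries and no more. An SE is the size of the fitted log2 difference (prior count 0.125) divided by the square root of F, or the counting error where larger. Folds against a group with 0 counts use 3 counts over the group, and with 1 to 3 counts the 95% exact (Clopper-Pearson) interval is given; both cover counting error only. Chromosomes and gene types came from GENCODE 29 by Ensembl identifier (another build; 96.6% of tested genes matched).

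The line comparison and its 30 lists (800 genes) were chosen with earlier results of these data known. The naming rule took TAL1, LMO1, VCAN and CFTR and the 12 largest rises and falls among called genes whose groups did not overlap and reached 2 CPM on average in 1 of the lines. It added the 6 largest of each direction at 100 CPM or more, up to 3 called members per list with the smallest p, and 8 genes from each panel. Antisense transcripts, pseudogenes and clone names were skipped for the rises and falls. Genes named outside the rule are CD3D, CD3E, CD7, CD1E, DNTT, PTCRA, THRA, PYHIN1, IL9R, STAT5A, SLAMF1, NOTCH1, DTX1, HES1, TCF7, ALDH1A2, EPAS1, MYB, RUNX1, GATA3, ID1, ID3, PHGDH, SLC25A6, PPP2R3B and CD99. Y-linked genes are given as a group.

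On simulated data for this comparison (16033 genes), 95.5% of 67 genes changed 1.5-fold, 100% of 67 changed 2-fold and 100% of 66 changed 4-fold were called, with 10 of 15833 unchanged genes. The changed genes were drawn above a minimum level in the TAL1 DMSO libraries, so recovery of low-count genes was not measured. Far fewer genes were changed there than were called in the data. Alternatives covered scaling, filters, DESeq2 1.42.0, the libraries fitted, the replicate block, subtraction of an induced profile, and each replicate left out.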

Additional observations from a re-analysis of the deposited data

Results flagged for a closer look

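For 35 genes, the 4 that mark the lines and the largest and the largest abundant rises and falls, the line difference with DMSO was tested against that with doxycycline by an interaction contrast in edgeR's quasi-likelihood model, adjusted over all genes. It differed in 13 of them, against 43.8% of the 16287 genes tested. The values are the log2 line difference with doxycycline minus that with DMSO.

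TAL1 differed by 4.13 (adjusted p = 6e-04). With doxycycline it was at 932 and 868 CPM in the TAL1/LMO1 line and at 35.5 and 42.9 CPM in the TAL1 line. SEC31B (1.98, adjusted p = 3.7e-35) and MVB12B (0.59, adjusted p = 8.6e-09) were higher in the TAL1/LMO1 line with DMSO and more so with doxycycline. The rise was smaller with doxycycline for CFTR (-2.07, adjusted p = 1.8e-09), PTPRF (-2.36, adjusted p = 0.00023), SFRP5 (-4.98, adjusted p = 0.012), KLRD1 (-6.58, adjusted p = 0.014), RXRA (-0.95, adjusted p = 4.8e-05) and CASC15 (-0.33, adjusted p = 0.0083). SFRP5 and KLRD1 had 0 counts in the TAL1 DMSO libraries, so their fitted values depend on the prior count. PTPRF rose by 0.38 with doxycycline in the TAL1/LMO1 line, and in the TAL1 line it went from 0.197 and 0.129 to 1.51 and 0.761 CPM. CFTR in the TAL1 line went from 6.82 and 6.08 to 19.5 and 12.7 CPM. What part the trace of LMO1-line genes in the doxycycline TAL1 libraries had in this was not tested. The fall was smaller with doxycycline for APOL1 (2.09, adjusted p = 0.013), MYO7B (2.08, adjusted p = 9.8e-20), PLEK (0.78, adjusted p = 7.1e-07) and RHOU (0.37, adjusted p = 0.0076).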

How the results depend on the processing

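Without 1 replicate at a time, the number of called genes lay between 6008 and 6312 and the number past 1 on the log2 scale between 1449 and 1511. Requiring a group mean of 2 CPM lowered the latter to 986, since fewer genes were tested. DESeq2 called 5538 genes and a fit of the 4 libraries alone 7757. Library totals in place of TMM moved the median of all genes to 0.07 and gave 4341 higher and 2995 lower. The replicate numbers of the uninduced lines shared only a number, since deviations of same-numbered libraries had a correlation of 0.06. With the replicate block 7544 genes were called, and no call of a named gene changed. Of 148 named genes 143 were called, and 138 kept their call without any single library.

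TAL1, LMO1 and the induced profile depended most on the settings. Without 1 replicate TAL1 ranged from -0.37 to 0.88 and LMO1 from 1.17 to 5.64. DESeq2's Wald test called LMO1 (4.22, adjusted p = 0.0033). With the 4 libraries alone LMO1 did not pass the filter on low counts. Subtracting from replicate 2 its excess of the induced profile, an alternative chosen after seeing the data, gave TAL1 -0.94 (adjusted p = 0.1) and ALDH1A2 -1.94. Without TAL1/LMO1 replicate 2, ALDH1A2 was at -0.96, and without replicate 1 at 1.06. Subtracting the panel's median share of the doxycycline profile from each TAL1/LMO1 library left 800 genes higher and 1128 lower by at least 1, 1928 in all. It reversed TAL1 (-8.87), LMO1 (-4.59), SEC31B (-12.68), CBFA2T3 (-0.69), ETS1 (-0.01), IL16 (-9.08), TRAC (-12.40), CCR7 (-0.28), TNFAIP3 (-0.23), STAG3 (-0.20), ITIH2 (-6.81), CPT1A (-0.03), SEMA4A (-4.59), KCNA3 (-3.53), RP11-284N8.3 (-5.15), PYHIN1 (-2.27), IL9R (-4.34), ALDH1A2 (-7.59), MYB (-0.99) and MYC (0.19). A gene whose own share of the doxycycline level lay below the subtracted one, 32.7% and 31.3%, was left without counts. The large negative values, as of SEC31B with a share of 19.8%, were therefore fixed by the subtraction. RUNX1, with a share of 18.2%, moved to -14.68 in the same way. The libraries were scaled anew after the subtraction, which raised genes that lost few counts. MYC, at a mean of 559 CPM without and 49.8 CPM with doxycycline, was such a gene. Its change of direction therefore says nothing about the uninduced cells either. SCGB3A1 (7.44, adjusted p = 0.17), RFC4 (-0.04), BTG2 (0.15) and MAEL (1.68) lost their calls, while VCAN, CFTR and KANK4 kept theirs.

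The median share of the doxycycline level was 31.9% over both TAL1/LMO1 libraries, 30.3% with library totals and 7.3% over a stricter panel of 6 genes, where the TAL1 line had 0.281%. The median of the falling panel was -0.505 with library totals, -0.591 with a stricter panel and -0.599 to -0.552 without 1 replicate. Over all alternatives but that subtraction, list medians kept their sign except for p53 targets, DNA replication, mitosis, HOX, imprinted and myeloid genes. Depth limits folds of genes near 0.198 CPM, where a fold is only bounded.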

Other observations

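Other fixed lists were read beside the 45.4% of all genes that were called. Of 7 tested cancer-testis genes 4 were higher in the TAL1/LMO1 line and 0 lower (57.1% called), with a median of 0.34. TEX19, a germ-cell gene, was at 0.655 and 1.23 CPM in the TAL1 line and at 8.79 and 6.76 CPM in the TAL1/LMO1 line (3.03, SE 0.28, edgeR adjusted p = 1.2e-17). Without replicate 1 of either line, 2 genes of this list were called. Homeobox genes split 7 higher to 6 lower of 19, with DLX2 higher by 1.18. Imprinted genes split 4 to 4 of 14 (57.1% called), with the largest named difference in TRAPPC9, which was higher by 0.78.

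POU2AF1, a coactivator of B cells, was at 0.655 and 1.04 CPM in the TAL1 line and at 16.4 and 15.3 CPM in the TAL1/LMO1 line (4.21, SE 0.29, edgeR adjusted p = 3.8e-29), while IGLL1 was at 312 CPM in both TAL1 libraries and at 97.7 and 105 CPM in the TAL1/LMO1 line (-1.63, SE 0.05). These genes of the B-cell list therefore had opposite directions, and MS4A1, VPREB1 and FCER2 were at 0 in all 4 libraries. GNLY, a cytotoxic granule protein, was at 0 and 0.0647 CPM in the TAL1 line and at 1.73 and 1.48 CPM in the TAL1/LMO1 line, a ratio of 49.3 (95% exact interval 8.46 to 1987). The depth leaves such ratios wide.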
